A study of Zea mays with 6 samples.

Results

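The genes described here are 6 of the 46430 genes listed in leaf RNA sequencing counts of maize (Zea mays), chosen by identifier as steps of the carotenoid pathway toward the precursor of abscisic acid. They are psy1 (Zm00001d036345), lcyE (Zm00001d011210), crtRB1 (Zm00001d048469), zep1 (Zm00001d003513), vp14 (Zm00001d033222) and ccd1 (Zm00001d048373). The rule is a list of identifiers, with no threshold on a measured value. Names were paired with identifiers when the set was defined, since neither the deposited files nor the RefSeq gene table used here pairs them. RNA came from the third leaf of seedlings of the inbred lines W9706 and B73, each at day 7 of drought, with 3 libraries per line. B73, whose genome is the maize reference, is labelled as wild type, and the labels give no further allele or agent for W9706. Seeds were soaked for 1 day, sown 3 to a beaker of soil and kept at 26°C in days of 14 h of light until 3 leaves had formed. All libraries were drought-treated, so the comparison was between lines and no response to drought could be computed.

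Carotenoids are plastid pigments that harvest light, protect the photosynthetic apparatus from excess light, and serve as the source of abscisic acid, the hormone that closes stomata when water is short. Phytoene synthase makes the first committed carotenoid, and the cyclases that act on lycopene then divide the pathway into a branch toward lutein and a branch toward beta-carotene and its xanthophylls. Zeaxanthin epoxidase turns zeaxanthin into the epoxycarotenoids, which a dioxygenase cleaves to xanthoxin, the precursor from which abscisic acid is made. In leaves the epoxidation of zeaxanthin is also one arm of the xanthophyll cycle, which adjusts the dissipation of excess light.

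Counts assigned to genes ranged from 25054048 to 32088105 in the W9706 libraries and from 21084151 to 26631103 in the B73 libraries. Correlations of log2 CPM (counts scaled to library size) were 0.970 to 0.985 within a line and 0.897 to 0.943 between lines, and W9706 replicate 1 and B73 replicate 2 were each the library of their line nearest to the other line. Unmapped reads made up 13.0% to 13.5% of reads in W9706 and 12.7% to 13.8% in B73, while reads outside annotated genes made up 4.18% to 4.33% in W9706 and 3.68% to 3.79% in B73. Prefix Zm00001d is that of B73 gene models, and the part of alignment differences in the values of any single gene was not tested. No leaf or other tissue marker carried a name in these files, so the tissue label could not be checked.

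All 6 genes were detected in every library, with 604 to 19112 counts per gene and library, and all passed the filter on low counts. Of the 6, zep1 and ccd1 passed the test of a difference between the lines, and both were lower in W9706. The level of zep1 was 0.354 times that in B73, and the level of ccd1 was 0.674 times that in B73. The other 4, psy1, lcyE, crtRB1 and vp14, did not pass the test, and their W9706 and B73 libraries overlapped. The test was edgeR's quasi-likelihood test with Benjamini-Hochberg adjustment over all 22135 genes tested and a threshold of 0.05. Levels are given in CPM scaled by TMM (trimmed mean of M-values) factors, which set the bulk of genes equal between libraries. The test called 34.2% of all genes, 15.2% higher and 19.0% lower in W9706, so a call for 2 of 6 genes is close to the background. That balance of directions depended on the scaling, with 3367 genes higher and 4197 lower under TMM, and 8165 higher and 2622 lower under library size alone. Libraries of the lines did not overlap for 2 of the 6 genes and for 50.6% of all genes. The median size of the log2 fold change was 0.35 for the 6 genes and 0.36 for all genes tested, and the signed medians were -0.35 and 0.01.

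**Figure D1:**
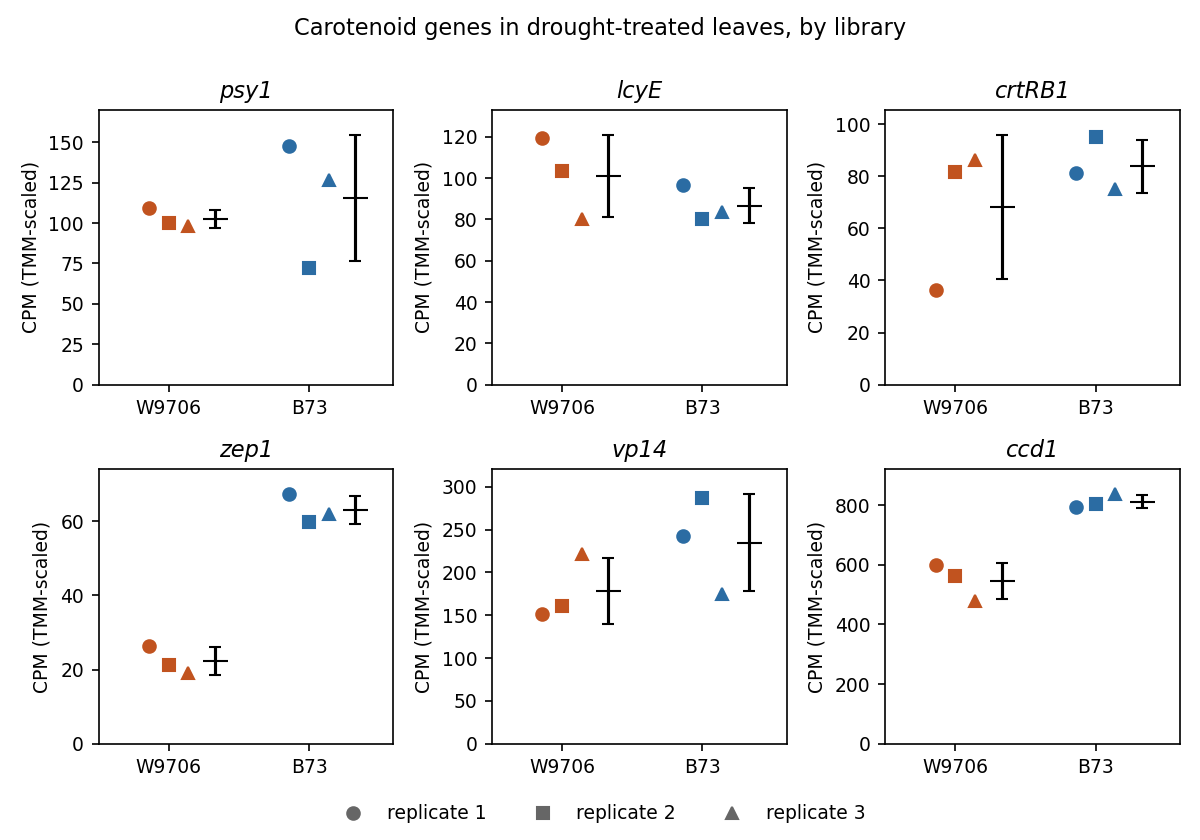
Level of each carotenoid gene in CPM scaled by TMM factors (y axis, from 0), in W9706 (left) and B73 (right); symbols are libraries by replicate number, and bars beside them are the mean ± SD of 3 libraries. The lines are apart for zep1 and ccd1 and overlap for the other 4 genes.

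The gene psy1 encodes phytoene synthase, which condenses geranylgeranyl diphosphate into phytoene and is known for setting the carotenoid content of yellow maize endosperm. Its level was 109, 100.3 and 98.1 CPM in W9706 replicates 1 to 3, against 148, 72.2 and 126 CPM in B73 replicates 1 to 3. The W9706 libraries lay close together, inside the wide range of the B73 libraries, of which replicate 2 was the lowest and replicate 1 the highest. The mean was 102 ± 5.79 CPM in W9706 against 115 ± 39.0 CPM in B73 (n = 3 each, SD). The log2 fold change was -0.17 ± 0.24 (SE), with a 95% interval of -0.74 to 0.40 and an edgeR adjusted p of 0.621. The outcome rested on single B73 libraries. Without B73 replicate 2 psy1 passed the test, at a log2 fold change of -0.41 and an edgeR adjusted p of 0.0377, and without B73 replicate 1 the log2 fold change was 0.054 (edgeR adjusted p of 0.879). With library size alone it was 0.12, against a median of 0.29 over all tested genes.

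The lycopene epsilon-cyclase gene lcyE directs lycopene toward alpha-carotene and lutein. Its level was 119, 104 and 80.2 CPM in W9706 replicates 1 to 3, against 96.5, 80.3 and 83.5 CPM in B73 replicates 1 to 3. The highest values were in W9706 replicates 1 and 2, while W9706 replicate 3 was as low as the lowest B73 library. The mean was 101 ± 19.7 CPM in W9706 against 86.8 ± 8.57 CPM in B73 (n = 3 each, SD). The log2 fold change was 0.22 ± 0.15 (SE), with a 95% interval of -0.13 to 0.57 and an edgeR adjusted p of 0.298. It was 0.36 when W9706 replicate 3 was left out (edgeR adjusted p of 0.0550) and 0.082 when W9706 replicate 1 was left out (edgeR adjusted p of 0.717). lcyE was the one gene of the 6 with a positive log2 fold change under TMM with all libraries, while psy1 was also positive with library size alone. Scaled by library size alone, the log2 fold change of lcyE was 0.50 and passed the test (edgeR adjusted p of 0.0262). It then stood 0.21 above the median of all tested genes.

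The gene crtRB1 encodes a beta-carotene hydroxylase, which turns beta-carotene into zeaxanthin and is known from maize kernels as a determinant of provitamin A content. Its level was 36.2, 81.8 and 86.3 CPM in W9706 replicates 1 to 3, against 81.4, 95.0 and 75.2 CPM in B73 replicates 1 to 3. W9706 replicate 1 alone lay low, and the other W9706 libraries lay within the B73 range. The mean was 68.1 ± 27.7 CPM in W9706 against 83.9 ± 10.1 CPM in B73 (n = 3 each, SD). The log2 fold change was -0.30 ± 0.31 (SE), with a 95% interval of -1.04 to 0.44 and an edgeR adjusted p of 0.496. It was 0.0023 when W9706 replicate 1 was left out (edgeR adjusted p of 0.991). The coefficient of variation of crtRB1 in W9706, 40.7%, was at least as large as that of 91.2% of tested genes in that line.

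The gene zep1 encodes zeaxanthin epoxidase, which makes antheraxanthin and violaxanthin from zeaxanthin. Its counts were 736, 604 and 675 in W9706 replicates 1 to 3, against 1620, 1330 and 1167 in B73 replicates 1 to 3. Those counts gave 26.5, 21.4 and 19.1 CPM in W9706 and 67.3, 59.8 and 62.0 CPM in B73. Every W9706 library lay below every B73 library, before and after scaling. The mean was 22.3 ± 3.76 CPM in W9706 against 63.0 ± 3.84 CPM in B73 (n = 3 each, SD). The log2 fold change was -1.50 ± 0.13 (SE) with a 95% interval of -1.79 to -1.20 and an edgeR adjusted p of 0.000249, a level between 0.288 and 0.434 times that of B73. Its size was at least that of 91.8% of all tested genes. zep1 kept its direction and its call in all 19 alternatives run, with log2 fold changes of -1.66 to -1.21. Some of these alternatives change the test alone and leave the log2 fold change as it is. In whole leaf RNA, fewer cells with a transcript and less transcript per cell cannot be told apart. The part of alignment differences between the lines in the zep1 values was not tested.

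The counts of zep1 were divided unevenly between the strand columns of the deposited tables. The library kit does not mark strand, and the first strand column held 50.1% to 50.3% of all stranded gene counts in each library. For zep1 it held 62.0%, 61.8% and 53.6% in W9706 replicates 1 to 3 and 61.7%, 57.1% and 59.1% in B73 replicates 1 to 3, and the 95% Wilson intervals, which cover counting error only, stood above 50% in all libraries but W9706 replicate 3. The pooled share of 59.4% was as far from 50% as that of 1.04% of the 14620 tested genes with at least 1000 counts. The unevenness was present in both lines, and the log2 fold change of zep1 was -1.49 in each strand column taken alone. Pooled shares of the other 5 genes were 49.3% to 51.7%.

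**Figure D2:**
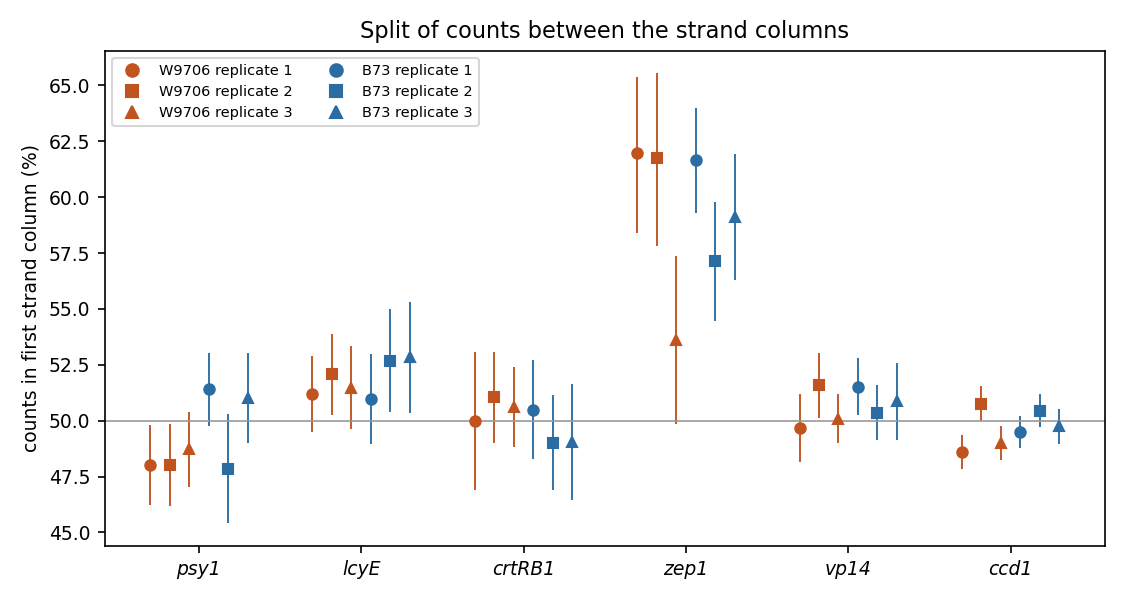
Percentage of the stranded counts that fell in the first strand column (y axis) for each gene and library, with 95% Wilson intervals; colours are lines and symbols replicates, with W9706 left of B73. zep1 stands at 53.6% to 62.0%, and the other genes at 47.9% to 52.8%.

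The gene vp14, named for the viviparous kernels of its mutant, encodes the epoxycarotenoid dioxygenase that makes xanthoxin and is regarded as a regulatory step of abscisic acid synthesis. Its level was 152, 161 and 222 CPM in W9706 replicates 1 to 3, against 242, 287 and 175 CPM in B73 replicates 1 to 3. The lines overlapped through W9706 replicate 3, which was above B73 replicate 3. The mean was 178 ± 38.2 CPM in W9706 against 235 ± 56.3 CPM in B73 (n = 3 each, SD). The log2 fold change was -0.40 ± 0.21 (SE), with a 95% interval of -0.89 to 0.10 and an edgeR adjusted p of 0.186. A level in W9706 from 0.538 to 1.07 times that of B73 was within this interval. Log2 fold changes of vp14 were negative in all 19 alternatives, at -0.59 to -0.11, and edgeR or DESeq2 adjusted p-values did not fall below 0.0629. As for zep1, some alternatives change the test alone, so the direction could not differ in them.

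The gene ccd1 encodes a carotenoid cleavage dioxygenase that acts in the cytosol and yields volatile apocarotenoids, outside the route to abscisic acid. Its level was 598, 562 and 479 CPM in W9706 replicates 1 to 3, against 794, 803 and 836 CPM in B73 replicates 1 to 3. The lines did not overlap, and the B73 libraries lay close together. The mean was 546 ± 61.0 CPM in W9706 against 811 ± 22.1 CPM in B73 (n = 3 each, SD). ccd1 was lower in W9706, with a log2 fold change of -0.57 ± 0.13 (SE), a 95% interval of -0.88 to -0.26 and an edgeR adjusted p of 0.0126. The call was lost without W9706 replicate 2 (log2 fold change -0.59, edgeR adjusted p of 0.0502) and with library size alone (-0.29, edgeR adjusted p of 0.109), where ccd1 stood -0.58 from the median of all genes. Some maize lines carry tandem ccd1 copies at the white cap locus, and the number of copies in W9706 was not determined here. How many copies the ccd1 counts of W9706 cover is therefore not known. The part of copy number in the difference between the lines was not tested.

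**Figure D3:**
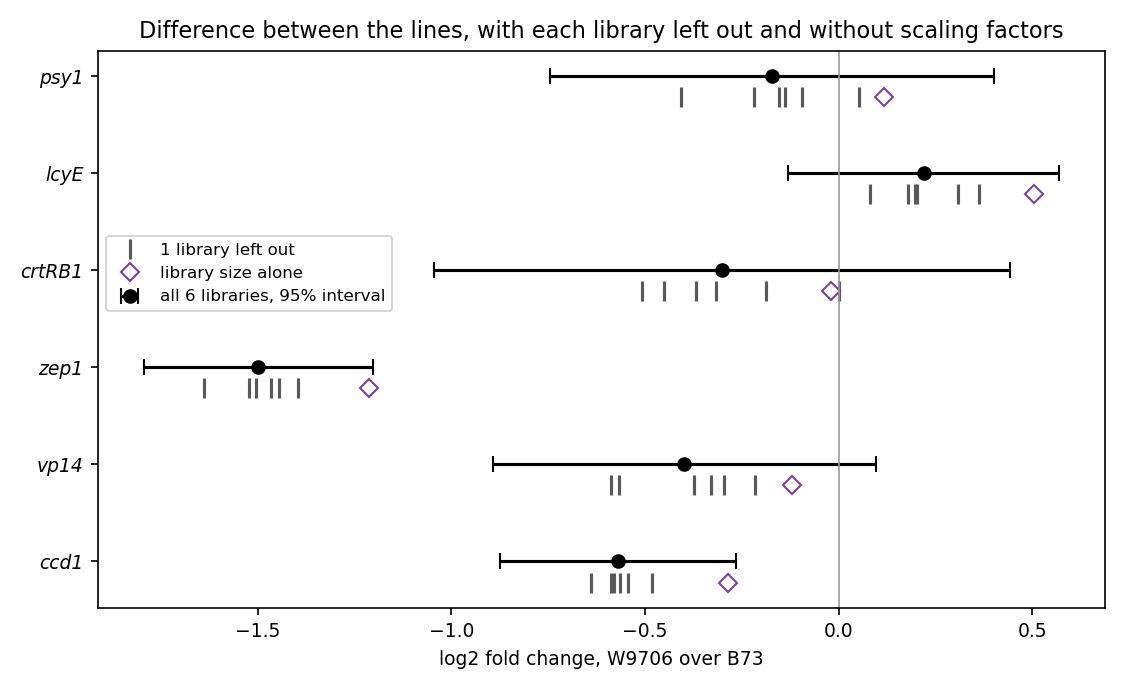
Log2 fold change of W9706 over B73 (x axis) for each carotenoid gene; points with bars are the edgeR estimate and 95% interval over 6 libraries, ticks are fits without 1 library, and diamonds are fits scaled by library size alone. The plotted estimates of zep1 lie between -1.64 and -1.21, while those of psy1 and crtRB1 lie on both sides of 0. The highest estimate of crtRB1 is 0.0023, without W9706 replicate 1.

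Replicate spread exceeded counting error for every gene. Counting alone would give a coefficient of variation of 0.754% for ccd1 in B73 and up to 3.86% for zep1 in W9706, whereas the observed values were 2.73% and 16.9%. The spread differed between genes. It was widest for crtRB1 in W9706, at 40.7%, where the highest library was 2.38 times the lowest, and for psy1 in B73, at 33.8%, where it was 2.05 times the lowest. By contrast psy1 in W9706 had a coefficient of variation of 5.65% and crtRB1 in B73 one of 12.1%. Medians over all tested genes were 11.6% in W9706 and 13.2% in B73.

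Ratios of counts between 5 pairs of the genes were compared because they need no scaling between libraries, and a gene's length cancels between lines. The ratio of vp14 to zep1, the dioxygenase to the epoxidase that supplies its substrates, was 5.73, 7.52 and 11.6 in W9706 replicates 1 to 3, against 3.60, 4.80 and 2.82 in B73 replicates 1 to 3. It was higher in every W9706 library than in every B73 library, by 1.12 on the log2 scale or 2.17-fold, on means of 2.99 ± 0.51 in W9706 and 1.87 ± 0.38 in B73 (n = 3 each, SD). The exact two-sided permutation p was 0.1, the smallest that 3 against 3 libraries allow. This permutation p was 0.5 after Benjamini-Hochberg adjustment over 5 ratios, so no ratio could pass a threshold of 0.05. The lines did not overlap for 50.6% of all genes taken singly, and the share over pairs of genes was not computed. The ratio uses the zep1 counts that gave the call above, so it is not a separate result. The ratio of zep1 to crtRB1 was 0.732, 0.261 and 0.222 in W9706 and 0.827, 0.629 and 0.825 in B73. W9706 replicate 1, the library in which crtRB1 was low, overlapped with the B73 libraries, and the difference of -1.11 on the log2 scale had an exact permutation p of 0.2 (0.5 adjusted).

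Of the genes crtRB1 and lcyE, lcyE acts at the branch point of the pathway and crtRB1 after it. Their ratio, crtRB1 to lcyE, was 0.303, 0.790 and 1.08 in W9706 and 0.843, 1.18 and 0.901 in B73. The lines overlapped, with a difference of -0.60 on the log2 scale (exact permutation p of 0.4, adjusted p of 0.667). That difference was -0.067 without W9706 replicate 1. The ratio of crtRB1 to psy1 differed by -0.29 (exact permutation p of 0.6, adjusted p of 0.7), and that of ccd1 to vp14, the dioxygenases of the set, by -0.19 (exact permutation p of 0.7, adjusted p of 0.7). For both, the lines overlapped. The difference for crtRB1 to psy1 was 0.16 without W9706 replicate 1 and 0.11 without B73 replicate 2, and that for ccd1 to vp14 was 0.075 without W9706 replicate 3 and 0.034 without B73 replicate 3.

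**Figure D4:**
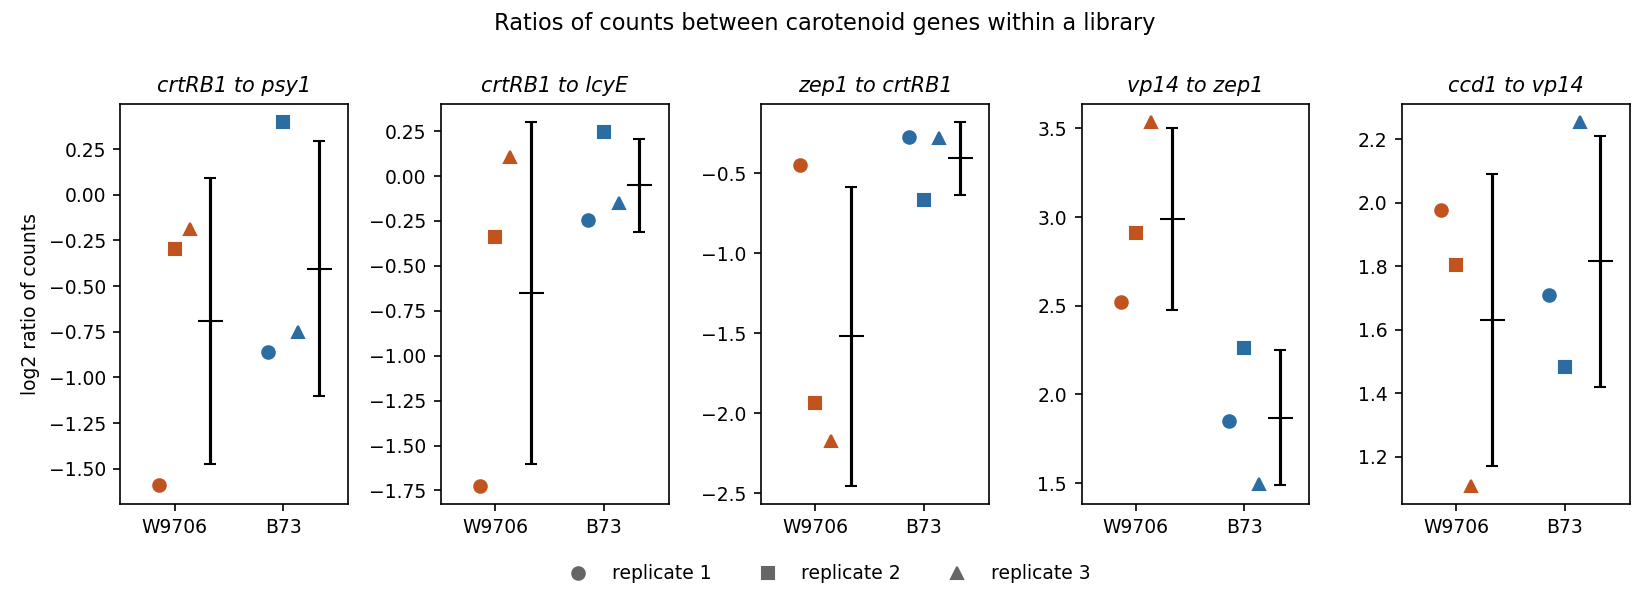
Log2 ratio of the counts of a pair of carotenoid genes in each library (y axis, own scale per panel), in W9706 (left) and B73 (right); symbols are replicates and bars the mean ± SD of 3 libraries. Only vp14 to zep1 is without overlap, with W9706 above B73. The share of pairs without overlap over all genes was not computed.

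Profiles over the 6 libraries were compared by the root-mean-square difference of centred log2 CPM. It is small for genes with like patterns, and also for genes that each vary little. Within the set the nearest pair was psy1 and lcyE, at 0.325, followed by crtRB1 and vp14, at 0.342. The log2 fold changes of psy1 and lcyE had opposite signs, at -0.17 and 0.22, so nearness here is not a shared direction. The zep1 profile was farthest from that of lcyE, at 0.858. Other genes were nearer than these. Of 19936 eligible nuclear genes, 17.8% were nearer to psy1 than lcyE was, and 48.8% were nearer to lcyE than psy1 was. For the other pair, 1.82% were nearer to crtRB1 than vp14 was, and 22.9% were nearer to vp14 than crtRB1 was. Among all nearest genes, Zm00001d009016, at 25.7 CPM in W9706 and 38.2 CPM in B73, was 0.024 from ccd1. Zm00001d051225, at 16.3 CPM in W9706 and 21.3 CPM in B73, was 0.053 from vp14. Zm00001d013186, at 1.98 CPM in W9706 and 1.70 CPM in B73, was 0.027 from lcyE. The files do not pair these identifiers with names. A list of 34 carotenoid and abscisic acid genes, 28 of them beyond the 6 described, held 16 symbols present in the gene table, of which 0 could be paired with an identifier in the files, so the rest of the pathway was not analysed here.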

How the data were processed

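RNA sequencing counts of 6 leaf libraries, 3 of W9706 and 3 of B73, were analysed. Raw counts of each gene, unstranded and by strand, were deposited by the authors in the format that STAR writes; the submitters' processing notes name STAR. Its version, the build and the gene annotation: not given in the sources used here. The 4 summary lines were left out of library sizes and tests: unmapped reads made up 12.7% to 13.8% of reads, reads outside genes 3.68% to 4.33% and ambiguous reads 1.06% to 1.16%, while multimapping reads were listed as 0. Counts in this format come from reads with a unique alignment, which leaves paralogs and overlapping genes uncertain.

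Tests on unstranded counts used edgeR 4.0.16 under R 4.3.3 (filterByExpr, TMM, robust quasi-likelihood fit, Benjamini-Hochberg over 22135 genes), with DESeq2 1.42.0 as an alternative. Fold changes are W9706 over B73, SE is the log2 fold change over the square root of F, and CPM use TMM-scaled library sizes. Log2 CPM for profiles used a prior count of 2 and genes averaging 1 CPM or more, and ratios used 0.5 added to each count. Simulated data served to check the edgeR script. Replicates may be technical, since the labels do not name separate plants or beakers, so p-values refer to the spread among libraries. No pair of libraries was a duplicate (chi-square per degree of freedom of at least 11.2 in 15 pairs). Deviations from the line mean correlated at 0.218, 0.111 and 0.131 between same-numbered libraries of the lines, for numbers 1 to 3. Each was above the limit of 0.1 set for pairing. Different-numbered libraries gave -0.228 to 0.107, so the limit did not separate them from the same-numbered ones. Deviations within a line sum to 0, so these correlations are not independent. On this limit alone, the replicate numbers were used as pairs in an alternative fit, the replicate block. The labels state no pairs, and the fit without pairs remained the main one. The members and lists were chosen with earlier results of these data known, although no measured value enters the rule. Named genes were the 6 members and, of the genes nearest to each in profile, at most 2 higher and 2 lower in W9706. Alternatives were the strand columns, other scalings, filters, tools and tests, the replicate block and leaving out libraries.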

Additional observations from a re-analysis of the deposited data

How the results depend on the processing

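The replicate block called 8047 genes, against 7564 without it, and changed no call among the 6 carotenoid genes, with log2 fold changes of -1.51 for zep1 and -0.58 for ccd1. For the ratios the block leaves the difference as it is by construction, and for vp14 to zep1, at 1.12, the exact sign-flip p was 0.25, the smallest that 3 pairs allow. Of 114 alternative log2 fold changes of the 6 genes, 104 kept direction and call, and of 55 alternative ratios other than the block 49 kept direction. A gene that stayed uncalled counts as having kept its call. The test against a 2-fold change and the fit without the robust option leave log2 fold changes as they are by construction. In these only the calls could differ. With library size alone, 8165 genes were higher and 2622 lower, against 3367 and 4197 with TMM, and 1 higher and 1 lower carotenoid gene, with log2 fold changes of 0.12 for psy1, 0.50 for lcyE and -0.29 for ccd1. A test against a 2-fold change (glmTreat), stricter by construction, called 844 genes, 276 higher and 568 lower, and 1 carotenoid gene, zep1, lower; ccd1, at -0.57, was not called. Leaving out 1 library gave 5133 to 6751 genes, 2070 to 2977 higher and 3063 to 3969 lower, and 1 to 3 carotenoid genes, 1 to 3 of them lower. In these fits the log2 fold change was -0.41 to 0.054 for psy1, 0.082 to 0.36 for lcyE, -0.51 to 0.0023 for crtRB1 and -0.64 to -0.48 for ccd1, and the difference in log2 ratio was -0.54 to 0.16 for crtRB1 to psy1 and -0.36 to 0.075 for ccd1 to vp14. With both B73 replicate 2 and W9706 replicate 1 left out, 2240 genes were higher and 1 carotenoid gene, zep1, was called, lower; crtRB1 was at 0.12, ccd1 at -0.63 (edgeR adjusted p of 0.0534), and the ratios of crtRB1 to psy1 and to lcyE at 0.56 and 0.081. The causes of these changes were not tested. Fits with libraries left out also have fewer samples, and the part of that in the changes was not tested. With counts of 604 or more per gene and library, replicate spread and the 3 libraries per line limit these results more than depth.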
